A study of Rattus norvegicus with 8 samples.

Results

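Cathepsins are the proteases of the lysosome, and the 8 described here (Ctsa, Ctsb, Ctsc, Ctsd, Ctsh, Ctsk, Ctss and Ctsz) were chosen by name from the 32623 rat genes listed in each count file, for their place in macrophages and in matrix breakdown. RNA was measured in the outflow vein of an arteriovenous fistula (AVF), an epigastric vein joined to the femoral artery, in 8 Sprague Dawley rats at day 21 after surgery. Around the vein, 4 rats carried a scaffold loaded with β-aminopropionitrile (BAPN), which inhibits lysyl oxidases, the crosslinking enzymes of collagen and elastin, and 4 carried the same bilayer of poly(lactic acid) and poly(lactic-co-glycolic acid) fibers without drug, called vehicle. BAPN 1, 2 and 3 and Vehicle 1 and 2 were females, and BAPN 4 and Vehicle 3 and 4 were males. The comparison asks how these transcripts differed in a vein whose matrix crosslinking was inhibited from outside. Every rat had the fistula and a scaffold, and an unoperated or unwrapped vein was not analysed here. The age of the rats was not given in the sources used here.

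Most cathepsins are cysteine proteases with a papain-like fold, while cathepsin D is an aspartic protease and cathepsin A a serine carboxypeptidase. They are made as inactive proenzymes, carried to the lysosome largely by mannose 6-phosphate receptors, and activated at acid pH. Macrophages hold many of them, and when the enzymes are secreted, cathepsins B, K and S can cut elastin, collagen or proteoglycans in the vessel wall.

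The 8 members lie on chromosomes chr1 (Ctsc and Ctsd), chr2 (Ctsk and Ctss), chr3 (Ctsa and Ctsz), chr8 (Ctsh) and chr15 (Ctsb) of the RefSeq annotation of assembly GRCr8. Ctsk and Ctss stand beside each other, with only LOC134485802 between them in that annotation. Promoter windows of 300 bases, 250 before and 50 after the annotated start, were found for 7 of the 8 members, all but Ctsb. The windows of Ctss and Ctsk are shown because these neighbors had the largest fold changes of the 8, and that of Ctsd because it alone of the 7 held the E-box core of the lysosomal motif. Capitals mark GAGGAAG, a core bound by PU.1-type factors of myeloid cells, in Ctss and Ctsk, and CACGTG with the overlapping TCACGTG in Ctsd, each read on either strand (CTTCCTC is GAGGAAG on the other strand). The windows are chr2:185775146-185775445 on the plus strand for Ctss, chr2:185747298-185747597 on the plus strand for Ctsk and chr1:206968772-206969071 on the minus strand for Ctsd.
Ctss: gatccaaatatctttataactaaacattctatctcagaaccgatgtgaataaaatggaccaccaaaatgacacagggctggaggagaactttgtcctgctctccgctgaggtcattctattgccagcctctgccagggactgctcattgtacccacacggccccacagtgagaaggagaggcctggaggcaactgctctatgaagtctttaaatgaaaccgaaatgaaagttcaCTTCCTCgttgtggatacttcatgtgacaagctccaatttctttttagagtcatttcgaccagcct
Ctsk: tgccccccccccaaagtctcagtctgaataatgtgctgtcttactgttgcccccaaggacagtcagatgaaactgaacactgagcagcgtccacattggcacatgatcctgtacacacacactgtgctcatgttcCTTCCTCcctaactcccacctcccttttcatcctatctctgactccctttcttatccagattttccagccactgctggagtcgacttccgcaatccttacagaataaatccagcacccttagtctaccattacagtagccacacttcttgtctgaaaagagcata
Ctsd: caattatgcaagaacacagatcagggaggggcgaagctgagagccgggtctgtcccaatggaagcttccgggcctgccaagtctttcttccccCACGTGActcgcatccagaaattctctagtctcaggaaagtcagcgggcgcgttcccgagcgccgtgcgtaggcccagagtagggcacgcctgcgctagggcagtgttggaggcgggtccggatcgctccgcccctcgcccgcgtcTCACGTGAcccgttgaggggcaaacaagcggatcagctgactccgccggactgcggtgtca

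GAGGAAG was found in the windows of 5 of the 7 members (Ctsc, Ctsh, Ctsk, Ctss and Ctsz) and in 12.4% of all 33469 rat promoter windows. In Ctss it starts 16 bases before the start site, and in Ctsk 115 bases before it. The E-box CACGTG, the core of the element read by TFEB, the transcription factor of lysosomal genes, was found in 1 of 7 members and in 6.42% of all windows. The match was Ctsd, where it occurs at 157 and at 10 bases before the start site. The longer form TCACGTG, which contains that core, was found in 3.2% of all windows and again only in Ctsd among the 7. TGACTCA, an AP-1 site, was found in 0 of 7 members and in 4.63% of all windows. A match of letters is a description of the window and says nothing of whether a factor was bound.

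The total count was 45039451 to 52241007 in the BAPN libraries and 19548203 to 22442050 in the vehicle libraries, so that depth separated the groups completely and cannot be told apart from the treatment. Each member had at least 3758 counts in every library, and all 8 passed the minimum base mean of 100 that left 11682 genes for testing. Levels are given as CPM, a share of the reads counted on genes, after TMM scaling, which adjusts library totals for differences in composition. Because CPM is not divided by transcript length, levels were compared between libraries, and the CPM of different genes is no measure of which had more transcripts. Each library is a separate rat, and bulk RNA cannot tell fewer cells of a type from less RNA per cell. Smooth muscle and endothelial markers, which belong to vessel walls and not to veins alone, were detected in both groups. Of them, 5 of 8 and 2 of 7 fell with BAPN (Myh11, Cnn1, Lmod1, Smtn and Des, and Vwf and Tek), beside 1081 of all 11682 genes called lower. With 1 rat left out, the smooth muscle count was 2 (without BAPN 3, BAPN 4 or Vehicle 3) to 7 (without BAPN 2), and 3 without BAPN 1 or Vehicle 4. The endothelial count was 1 without Vehicle 1 or any 1 BAPN rat, and 4 without Vehicle 2, and among females both counts were 0.

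Ctss rose with BAPN, by 1.03 on the log2 scale, and it was 1 of 8 cathepsins called at a false discovery rate (FDR) below 0.05 (edgeR). Over all tested genes 16.8% were called in either direction, and 7.5% were called higher with BAPN. The other 7 members did not pass, with Ctsk at 0.94, Ctsz at 0.64 and Ctsd at 0.52 on the log2 scale. All 8 fitted log2 fold changes were above 0, with a median of 0.42, beside 51.6% above 0 and a median of 0.02 among all genes tested. With DESeq2, 2 of 8 members were called (Ctss and Ctsk), beside 27.4% of all genes.

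**Figure D1:**
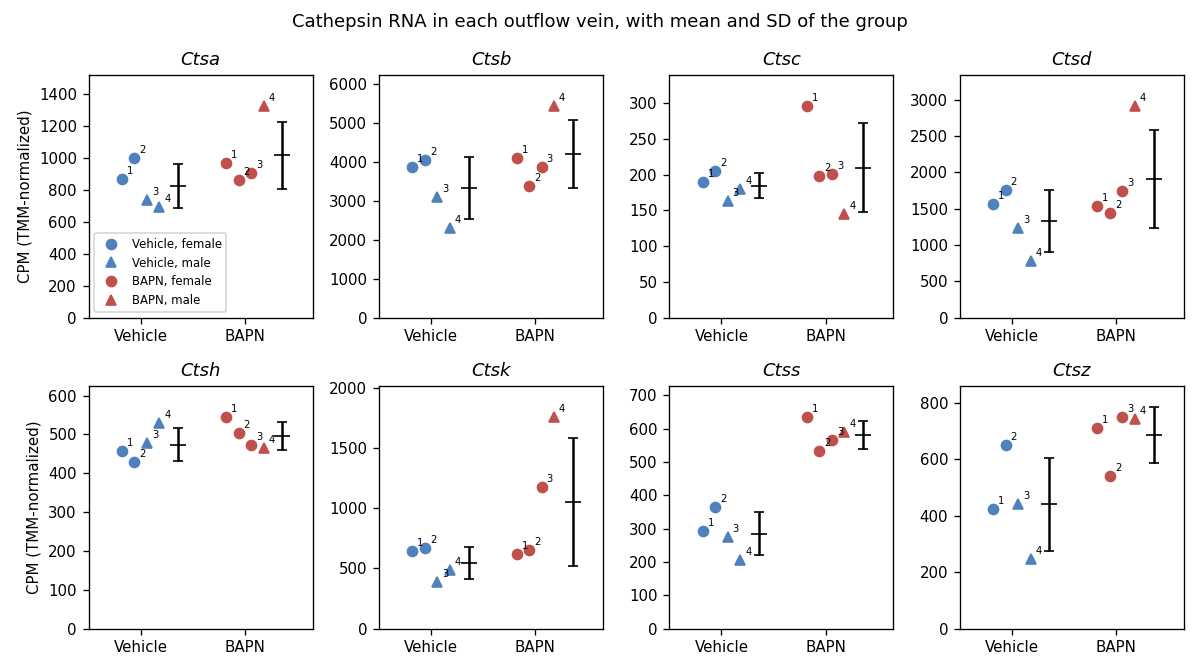
Level of each cathepsin (y axis, TMM-scaled CPM, starting at 0) in the 4 vehicle and 4 BAPN libraries, with the replicate number beside each point, circles for females, triangles for males, and a bar for the mean and SD of the group. Only in Ctss do the groups stay apart, and BAPN 4 is the highest point in Ctsa, Ctsb, Ctsd and Ctsk.

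Cathepsin S (Ctss, ENSRNOG00000021157) is the cysteine endopeptidase that keeps its activity at neutral pH, cuts elastin and trims the invariant chain in antigen-presenting cells. Its level was 634, 532, 567 and 591 CPM in BAPN 1 to 4 and 293, 366, 276 and 206 CPM in Vehicle 1 to 4. The lowest BAPN library was above the highest vehicle library, and Ctss was the only 1 of 8 members without overlap, beside 12.7% of all tested genes that were higher with BAPN without overlap. The means were 581 ± 43.0 CPM under BAPN and 285 ± 65.8 CPM under vehicle (SD, n = 4 each), a ratio of 2.04. The log2 fold change was 1.03 with a standard error (SE) of 0.19 and an FDR of 0.0122 in edgeR, and the FDR in DESeq2 was 1.5e-06. When any 1 rat was removed, the log2 fold change was 0.90 to 1.17, and the edgeR FDR stayed below the threshold in all 8 cases, at most 0.0419. Among females alone (3 against 2) it was 0.81 with an FDR of 0.0896, so that the call was lost in that smaller set while the direction was kept.

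Cathepsin K (Ctsk, ENSRNOG00000021155) is the collagen-degrading enzyme known best from osteoclasts and also found in macrophages and fibroblasts. The BAPN libraries held 623, 650, 1175 and 1757 CPM and the vehicle libraries 646, 668, 386 and 485 CPM. BAPN 3 and 4 were above every vehicle library, while BAPN 1 and 2 lay within the range of the vehicle group. The means were 1051 ± 535 and 546 ± 134 CPM (SD, n = 4 each), and the BAPN group spread 2.82-fold from its lowest to its highest rat, the widest spread of any member in that group. The log2 fold change of 0.94 (SE 0.33) had an FDR of 0.0868 in edgeR and of 0.0273 in DESeq2. Without BAPN 4 it was 0.57 with an edgeR FDR of 0.212, and among females alone it was 0.31. The neighbors Ctsk and Ctss thus had fold changes of like size, with a rat-to-rat spread in the BAPN group of 50.9% of the mean for Ctsk and 7.4% for Ctss.

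Cathepsin B (Ctsb, ENSRNOG00000010331), a broad cysteine protease that works both within chains and from their ends, was at 4104, 3388, 3877 and 5429 CPM under BAPN and at 3886, 4054, 3092 and 2303 CPM under vehicle. The groups overlapped, with the 2 female vehicle rats among the BAPN values. The log2 fold change was 0.33 (SE 0.24, edgeR FDR 0.339), and without BAPN 4 and Vehicle 4 it was 0.04.

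Of the exopeptidases, cathepsin Z (Ctsz, ENSRNOG00000050697), a carboxypeptidase of monocytes and macrophages, had the largest difference. Its level was 711, 541, 749 and 745 CPM under BAPN and 425, 651, 442 and 245 CPM under vehicle. Only Vehicle 2 reached into the BAPN range, above BAPN 2. The log2 fold change was 0.64 (SE 0.29, edgeR FDR 0.119), and it was called in 1 of 8 fits with 1 rat left out, at 0.89 with an FDR of 0.036 without Vehicle 2. In the other fits it was 0.44 (without Vehicle 4) to 0.73 with FDR values up to 0.232, and among females it was 0.31.

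Cathepsin H (Ctsh, ENSRNOG00000014064), an aminopeptidase, was level across the rats. It was at 544, 505, 473 and 464 CPM under BAPN and at 459, 429, 479 and 530 CPM under vehicle, with the groups fully interleaved and a log2 fold change of 0.07 (SE 0.12, edgeR FDR 0.728). Cathepsin C (Ctsc, ENSRNOG00000016496), the dipeptidyl peptidase that activates the granule serine proteases of leukocytes, was at 295, 198, 200 and 145 CPM under BAPN and at 190, 205, 164 and 180 CPM under vehicle. BAPN 1 was the highest and BAPN 4 the lowest of the 8, and the log2 fold change of 0.19 (SE 0.19, edgeR FDR 0.527) became −0.03 without BAPN 1. BAPN 4, the highest rat for Ctsa, Ctsb, Ctsd and Ctsk, was thus at the bottom of the BAPN group for both Ctsc and Ctsh.

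Cathepsin D (Ctsd, ENSRNOG00000020206), the aspartic endopeptidase of the lysosome, was at 1530, 1446, 1745 and 2906 CPM under BAPN and at 1562, 1752, 1237 and 783 CPM under vehicle. The 3 female BAPN rats and the 2 female vehicle rats lay in 1 range, with BAPN 4 above it and the male vehicle rats below it. The log2 fold change was 0.52 (SE 0.31, edgeR FDR 0.251) in all rats and −0.07 among females. Cathepsin A (Ctsa, ENSRNOG00000015857), the serine carboxypeptidase that also protects the lysosomal neuraminidase and β-galactosidase, was at 972, 861, 908 and 1323 CPM under BAPN and at 870, 1003, 735 and 695 CPM under vehicle. The order was like that of Ctsd, with Vehicle 1 and 2 among the BAPN values, and the log2 fold change of 0.30 (SE 0.19, edgeR FDR 0.287) became −0.03 among females.

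The 8 members together made up 9414, 8121, 9695 and 13360 CPM of the BAPN libraries and 8331, 9127, 6811 and 5427 CPM of the vehicle libraries. The groups overlapped, and the mean log2 sum was 0.45 higher with BAPN. Among females alone that difference was 0.05, and without BAPN 4 and Vehicle 4 it was 0.17.

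**Figure D2:**
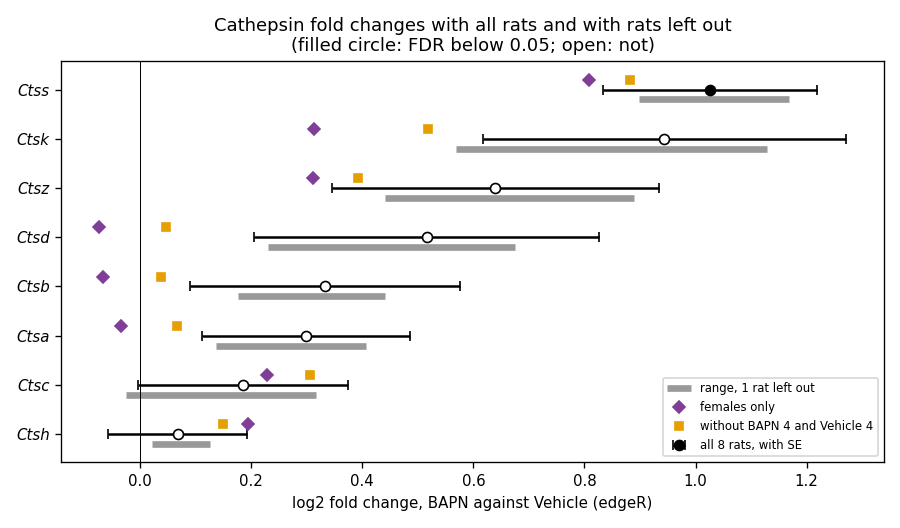
Log2 fold change of each cathepsin between BAPN and vehicle (x axis, log2) with all 8 rats and its SE (circles, filled below an FDR of 0.05), the range when 1 rat is left out (gray bars), females only (diamonds), and BAPN 4 and Vehicle 4 left out (squares). Ctss stays between 0.81 and 1.17 throughout, whereas Ctsa, Ctsb and Ctsd lie at or slightly below 0 among females.

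Treatment and sex could be separated only in part, since the BAPN group held 1 male. The difference of the treatment effect between the sexes, male minus female on the log2 scale, was 1.70 for Ctsk, 1.60 for Ctsd, 1.08 for Ctsb and 0.92 for Ctsa. None passed in the edgeR interaction test, with FDR values of 0.269, 0.249, 0.355 and 0.292. No gene of 11682 did so, while at an unadjusted p below 0.05 the test held 4 of the 8 members (Ctsa, Ctsb, Ctsd and Ctsk) and 1442 of all genes (12.3%). The value was 0.81 for Ctsz (FDR 0.579) and 0.49 for Ctss (FDR 0.613), and those of Ctsc and Ctsh were −0.47 and −0.31. BAPN 4 is the only male under BAPN and was the highest library for Ctsa, Ctsb, Ctsd and Ctsk, so that sex and that single rat cannot be told apart.

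The members followed each other to different degrees. After each gene was centered on its mean over the 8 libraries, the root mean square difference of log2 CPM was 0.12 between Ctsa and Ctsb and 0.18 between Ctsb and Ctsd, the most alike of the 28 pairs, and 0.77 between Ctsc and Ctsk, the least alike. Ctss was nearest to Ctsz among the members, at 0.25, and stood 0.50 from its chromosomal neighbor Ctsk. By the same measure, tested genes outside the members were searched, leaving out symbols that begin with LOC, RGD, Rn, Gm, AY and like prefixes. In that search the nearest to Ctsa were Manba, the lysosomal β-mannosidase, at 0.067, and Psap, the precursor of the saposins, at 0.075. Folr2, a folate receptor of resident macrophages, was the nearest to Ctsz, at 0.076, followed by Psd4. For Ctsb the nearest were Sgpl1 and Ipmk, for Ctsc Ap1b1 and Pole, for Ctsd Cyp4v3, and for Ctsh Syncrip and Puf60. Ctsk had no gene as close among those searched, with Bend6 at 0.18 and the mitochondrial Mt-nd6 at 0.25. The nearest to Ctss were Pet100, a factor for assembly of cytochrome c oxidase, at 0.14, and Ezr, the membrane linker ezrin, at 0.15, which both rose with BAPN by 0.87 (FDR 0.0148) and 0.80 (FDR 0.0245) on the log2 scale in edgeR. Pet100 stayed called with each of the 8 rats left out, and Ezr in 5 of 8 cases, not without BAPN 3, Vehicle 1 or Vehicle 3. Likeness over 8 libraries that share group, sex and depth is a description of these rats.

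Some members share their locus with other genes in the RefSeq annotation, Ctsa with Pltp and Neurl2, Ctsz with Nelfcd, Ctsd with Tnni2 and Ctsk with Eef1e1-ps1. The strand setting of the counting was not given in the sources used here, so that reads of overlapping exons could have been assigned to either gene or to none. Pltp, the lipid transfer protein beside Ctsa, had a log2 fold change of −0.25 (edgeR FDR 0.285), and Nelfcd, beside Ctsz, of −0.26 (edgeR FDR 0.133), both opposite in sign to the cathepsin. Neurl2 was at −0.17 (edgeR FDR 0.659), Tnni2 was below the expression minimum, and Eef1e1-ps1 was not listed under that name. Ctsb, Ctsc, Ctsh and Ctss had no overlapping gene.

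Further genes of the family gave 0 called of 5 tested in edgeR and 2 in DESeq2, beside 16.8% and 27.4% of all genes. Ctsl, the macrophage and fibroblast endopeptidase, was at 721 ± 132 CPM under BAPN and 522 ± 96.2 CPM under vehicle (SD, n = 4 each), a log2 difference of 0.47 (edgeR FDR 0.109). Ctsw, known from cytotoxic lymphocytes, was at 1.25 (edgeR FDR 0.0539, DESeq2 FDR 0.0105), and Tinagl1, a matrix protein related to the cathepsins in sequence but without protease activity, was at −0.93 (edgeR FDR 0.0754, DESeq2 FDR 0.0212). Ctse and Ctsf were at 0.44 and −0.02.

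The list of inhibitors of the cathepsins and of related proteases had 12 tested genes, and it also holds Serpinh1, a collagen chaperone, at −0.48 (FDR 0.246). In edgeR 3 of the 12 rose with BAPN (7.5% among all genes) and 0 fell, with a median log2 fold change of 0.60. Slpi, a secreted inhibitor of leukocyte serine proteases, was at 137, 96.6, 103 and 35.0 CPM in BAPN 1 to 4 and at 23.1, 32.2, 33.0 and 29.0 CPM in Vehicle 1 to 4. Its groups did not overlap, although BAPN 4 was barely above the vehicle rats, and the log2 fold change was 1.66 (SE 0.40, FDR 0.0187). Serpinb1a, an inhibitor of neutrophil serine proteases, was at 120, 75.7, 142 and 96.7 CPM under BAPN and at 47.3, 66.2, 47.4 and 27.6 CPM under vehicle, also without overlap (log2 fold change 1.20, SE 0.27, FDR 0.0225). Cystatin B (Cstb), the cytosolic inhibitor of cysteine cathepsins, was at 205, 221, 328 and 341 CPM under BAPN and at 154, 209, 156 and 107 CPM under vehicle. Vehicle 2 was above BAPN 1, and Cstb passed narrowly with a log2 fold change of 0.81 (SE 0.24, FDR 0.0466), a call kept in 2 of 8 fits with 1 rat left out, those without BAPN 1 or without Vehicle 2. Of the 3 called inhibitors, Cstb is the one known for acting on cysteine cathepsins. Cst3, the secreted cystatin C, was at 1469 ± 331 and 1640 ± 215 CPM (SD, n = 4 each; log2 difference −0.16, FDR 0.597). Cd74, the invariant chain that cathepsin S trims, was at 0.57 (FDR 0.194). The difference between the inhibitors and the enzymes was not tested. The count of called inhibitors was 0 without Vehicle 1, 1 without BAPN 3 and 1 among females, and lay between 2 and 4 with any other rat left out.

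Genes that process cathepsins and sort them to the lysosome gave 1 called higher and 1 lower of 19, with a median of 0.17. Among all genes 16.8% were called in either direction. M6pr, the cation-dependent mannose 6-phosphate receptor, was at 29.9, 24.2, 24.7 and 29.7 CPM under BAPN and at 18.1, 13.7, 14.5 and 14.3 CPM under vehicle. The groups were apart, with a log2 fold change of 0.84 (SE 0.15, FDR 0.0107), whereas the other mannose 6-phosphate receptor, Igf2r, was at −0.09 (FDR 0.794). Sort1, the sortilin that carries some lysosomal enzymes without mannose 6-phosphate, fell with BAPN. It was at 83.3, 118, 64.0 and 94.4 CPM under BAPN and at 161, 142, 155 and 229 CPM under vehicle (log2 fold change −0.94, SE 0.21, FDR 0.0227). Lgmn, the legumain that processes several cathepsins, was at 0.73 (FDR 0.0665, DESeq2 FDR 0.0165), and Psap, the saposin precursor, at 0.30 (FDR 0.349). The partners of cathepsin A, Neu1 and Glb1, were at 0.33 and −0.09. M6pr stayed called with each of the 8 rats left out, and Sort1 was not called without BAPN 3, BAPN 4 or Vehicle 1.

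The vacuolar ATPase, the proton pump that acidifies the lysosome, rose in part. Of 20 genes in its list, which also holds the TFEB family of transcription factors, 7 were called higher (7.5% among all genes) and 0 lower, with a median of 0.50. The called genes were Atp6ap2, at 253 ± 48.1 against 130 ± 44.2 CPM (SD, n = 4 each; log2 fold change 0.96, FDR 0.0342), and 6 subunits of the peripheral V1 sector, among them Atp6v1e1 at 0.83 (FDR 0.0418) and Atp6v1c1 at 0.72 (FDR 0.0248). All 7 were without overlap between the groups, beside 12.7% of all tested genes that were higher with BAPN without overlap. Of the V1 genes in the list, 6 of 8 were called, and of the membrane V0 genes 0 of 6 (0 also in DESeq2), with log2 differences of 0.19 to 0.82 in the latter. The difference between the sectors was not tested. Of the TFEB family, Tfeb was at 0.06, Tfe3 at −0.20, Mitf at 0.41 and Tfec at 0.84, none called in edgeR, and Tfec was called in DESeq2 (edgeR FDR 0.06, DESeq2 FDR 0.0209). The count depended on single rats, with 0 called without BAPN 4 or without Vehicle 1, 1 without BAPN 3 or without Vehicle 3, 3 without Vehicle 4 and 4 without BAPN 2. It was 0 among females, and 3 when the libraries were scaled by their totals alone.

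A list of other lysosomal hydrolases, which also holds the sterol carriers Npc1 and Npc2, had 28 tested genes. Of these, 0 were called higher and 1 lower in edgeR, with a median of 0.03. DESeq2 called 4 of the 28, beside 27.4% of all genes. Of those 4, Acp5, Npc2 and Ppt1 were higher under BAPN, at 0.83, 0.58 and 0.54 (DESeq2 FDR 0.0177, 0.0315 and 0.0137). The gene called lower was Hyal1, a hyaluronidase, at 6.21 ± 1.10 against 11.5 ± 4.01 CPM (SD, n = 4 each; log2 fold change −0.89, FDR 0.0482), which stayed called in 2 of 8 fits with 1 rat left out, those without Vehicle 2 or without Vehicle 3. Lipa, the lysosomal acid lipase, was at 0.50 (FDR 0.389).

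**Figure D3:**
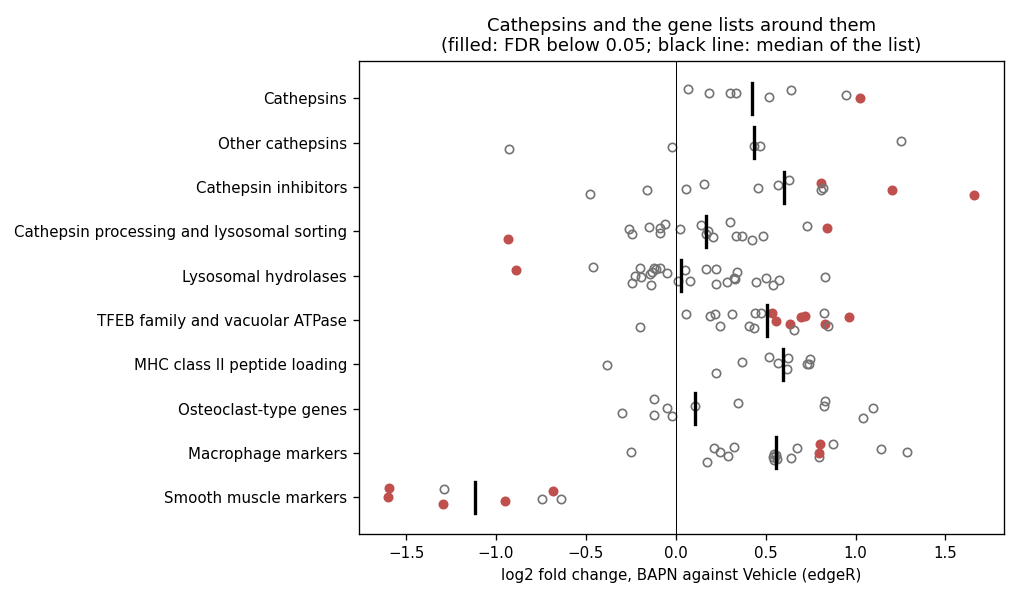
Log2 fold change between BAPN and vehicle (x axis, log2) of each tested gene in the cathepsins and 9 lists around them (rows, with points spread vertically for legibility). Filled points had an FDR below 0.05, and the black line is the median of the list, which is 0.42 for the cathepsins, 0.50 for the list of the vacuolar ATPase, 0.03 for the hydrolases and −1.12 for smooth muscle markers.

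Partners and targets of single cathepsins were read from the same fit, in which 16.8% of all genes were called in edgeR and 27.4% in DESeq2. Of the serine proteases that cathepsin C activates, 0 were called higher and 1 lower of 4 tested in edgeR, while DESeq2 called 3. Gzmk, a granzyme of lymphocytes, was at 1.21 (edgeR FDR 0.0568, DESeq2 FDR 0.015), and Cma1, a mast cell chymase, at −1.49 (edgeR FDR 0.0633, DESeq2 FDR 0.0123), both without overlap. The called gene was Mcpt1l1, a mast cell protease, at 13.0, 14.5, 11.1 and 2.67 CPM under BAPN and at 30.0, 22.5, 50.9 and 24.6 CPM under vehicle (log2 fold change −1.64, SE 0.49, FDR 0.0429). It stayed called in 2 of 8 fits with 1 rat left out, those without BAPN 4 or without Vehicle 2. Reads of near-identical mast cell proteases may be shared, which makes that value uncertain. Class II antigen loading, where cathepsin S acts, gave 0 called of 10 in edgeR and 4 in DESeq2, with a median of 0.60. Ifi30, the lysosomal thiol reductase of that pathway, was at 0.62 (FDR 0.0712). The osteoclast-type genes, which accompany cathepsin K in bone, gave 0 called of 11 in edgeR and 2 in DESeq2 (median 0.11), with 6 of 11 above 0 and 5 below. Acp5, the tartrate-resistant phosphatase, was at 0.83 (edgeR FDR 0.0584, DESeq2 FDR 0.0177), Nfatc1, the osteoclast transcription factor, at −0.30 (edgeR FDR 0.0835, DESeq2 FDR 0.0453), and Mmp9, a gelatinase, at 1.04 (edgeR FDR 0.315). The 13 matrix substrates gave 0 called in edgeR and 2 in DESeq2, with 12 of 13 below 0 and a median of −0.65. Col1a1, a chain of collagen I, was called by DESeq2 (FDR 0.0278) and not by edgeR (FDR 0.118), and Eln, the elastin gene, was at −0.99 (edgeR FDR 0.26).

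Of 20 macrophage markers, 19 were tested and Marco was listed at 0, and 18 of the 19 were above 0 with a median of 0.56. In edgeR 2 were called higher, Aif1 at 0.80 (FDR 0.0155) and Fcgr1a at 0.80 (FDR 0.0474), beside 7.5% of all genes. The macrophage count was 0 without Vehicle 1, 5 without Vehicle 2, 0 among females and 1 without BAPN 1, BAPN 2, BAPN 3, Vehicle 3 or Vehicle 4. The summed level of the 19 markers was 38214 to 55636 CPM under BAPN and 9274 to 34003 CPM under vehicle, lowest in Vehicle 4. Lyz2, the lysozyme of myeloid cells, made up 41.6% to 73.0% of the reads in that sum, which is not corrected for transcript length (log2 fold change 1.28, FDR 0.0722). The pan-leukocyte list gave 1 called of 5, Cd53 at 1.06 (FDR 0.0376), with Fcer1g at 0.78 (FDR 0.0506). Cd53 stayed called in 2 of 8 fits with 1 rat left out, those without Vehicle 2 or without Vehicle 4. T cell markers gave 2 of 8 and B cell markers 2 of 3 called higher (Cd2 and Cd8a, Mzb1 and Cd79b), beside the same 7.5% of all genes. Dendritic cell markers gave 0 higher and 1 lower (Zbtb46) of 7, and neutrophil (2 tested), mast cell (3) and fibroblast markers (8) none in edgeR. The summed B cell markers were at 145, 181, 200 and 5.82 CPM in BAPN 1 to 4 and at 9.70 to 33.5 CPM in the vehicle rats, so that BAPN 4 lay below every vehicle rat. The B cell count was 3 without BAPN 4, 1 without Vehicle 3 and 0 with any other rat left out, and the T cell count was 1 without BAPN 1, BAPN 2, BAPN 3 or Vehicle 4. For dendritic cell markers the count was 0 without Vehicle 1 and 2 without BAPN 4. DESeq2 called 0, 1 and 4 genes of the neutrophil, mast cell and fibroblast lists, beside 27.4% of all genes. Adipocyte markers gave 0 higher and 1 lower (Plin1) of 5 in edgeR, and 4 were called in DESeq2. Plin1 stayed called in 1 of 8 fits with 1 rat left out, that without Vehicle 4. Skeletal muscle markers (2 tested) and the keratinocyte marker (1 tested) gave none in edgeR, and 1 and 0 in DESeq2. The part of these cells in the cathepsin values was not tested.

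Set against the summed macrophage markers, the summed cathepsins were lower with BAPN without overlap, with a log2 difference of −0.69. It was −0.19 without Lyz2 and −0.15 when the 19 markers had equal weight, and against the summed pan-leukocyte markers the difference was −0.30, with overlap. For Ctss, the log2 ratio to the marker sum differed by −0.09 between the groups, with overlap. To the mean log2 level of the markers, Ctss was at 0.34, 0.39, 0.37 and 0.39 in BAPN 1 to 4 and at −0.14, −0.20, 0.02 and 0.02 in Vehicle 1 to 4, a difference of 0.45 without overlap. Without Lyz2 in the sum the difference was 0.41, with overlap, and against the summed pan-leukocyte markers 0.30, also with overlap. For Ctsh and Ctsc the difference relative to the mean marker level was −0.54 and −0.46, both with overlap. The weighting of the markers thus set the size of each ratio and, for Ctsk, Ctss and Ctsz, its sign.

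**Figure D4:**
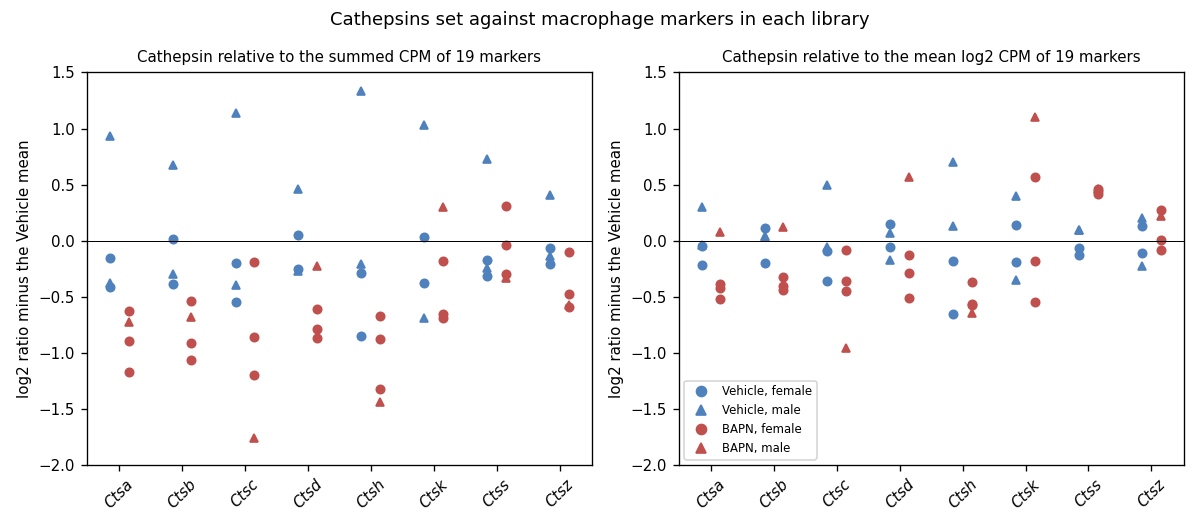
Log2 ratio of each cathepsin to the summed CPM of 19 macrophage markers (left) and to their mean log2 CPM (right) in each library (y axis, log2, with the vehicle mean set to 0), blue for vehicle and red for BAPN, circles for females and triangles for males. Relative to the mean marker level the 4 BAPN libraries lie together above the vehicle libraries for Ctss, while relative to the sum they overlap.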

How the data were processed

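RNA of 8 outflow veins was sequenced by the authors after ribosomal RNA depletion with a stranded kit. The deposited files hold raw counts of reads per gene for 32623 genes, 1 file per rat, without normalization. The submitters' processing notes name bcl2fastq 2.17, Trim Galore and STAR. The counter, its strand setting and the genome build were not given in the sources used here. Groups, replicate numbers and sex came from the sample labels.

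The 11682 genes whose mean count after DESeq2 size factors (base mean) reached 100, the minimum of the study, were tested. BAPN was compared with vehicle by edgeR 4.0.16 (TMM, quasi-likelihood F test, no covariate) in R 4.3.3, with p-values adjusted by Benjamini-Hochberg across the 11682 genes and an FDR threshold of 0.05. DESeq2 1.42.0, the tool closest to that of the study, served as an alternative. SEs came from limma 3.58.1 (voom), and log2 CPM used a prior count of 2. On simulated data for this comparison, 200 genes of 11682 were changed by 1.5 on the log2 scale, of which edgeR recovered 169 with 7 false calls and DESeq2 188 with 41. No member changed by as much, and the simulated spread was the one that edgeR had estimated. These figures therefore do not give the chance of finding changes of the size seen in the members. Each library is a separate rat and was counted as 1 replicate. Chi-square per degree of freedom between libraries of a group was 68.58 to 320.8.

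The members and the 22 gene lists around them were chosen with earlier results of these data known. Genes were named by a rule: all members, every called gene of the lists of further cathepsins, inhibitors, sorting genes, cathepsin C targets and class II loading, up to 3 largest called changes of other lists, the gene of highest CPM of every list, and the 2 genes nearest to each member in profile, of which 1 is not reported here. For cell type markers other than those of macrophages, counts and called genes are given, and the gene of highest CPM only in some lists. Genes beyond these (Ctsw, Tinagl1, Ctse, Ctsf, Cst3, Serpinh1, Igf2r, Lgmn, Neu1, Glb1, Tfeb, Tfe3, Tfec, Mitf, Ifi30, Acp5, Nfatc1, Npc2, Ppt1, Gzmk, Cma1, Smtn, Des, Eln and the overlapping genes) were named for their role after their values were seen. Alternatives were DESeq2 with and without a prior, other scaling, other filters, equal totals, sex as a covariate, females only, a replicate block and each library left out. The removal of both libraries numbered 4 and the reweighting of macrophage markers were chosen after seeing the data. Promoter sequences are from RefSeq (GRCr8), and no coordinate was taken from the count files.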

Additional observations from a re-analysis of the deposited data

Results flagged for a closer look

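In 178 groups of 4 values examined (levels of the named genes and summed lists in each treatment group), 8 had a library far from the other 3, and chance alone gives about 1 in 20 groups. None was a level of the 8 cathepsins. M6pr, the mannose 6-phosphate receptor, was at 18.07 CPM in Vehicle 1 and at 13.74 to 14.48 CPM in the other vehicle rats, which is still below every BAPN rat. The summed level of the serine proteases that cathepsin C activates was 70.67 CPM in Vehicle 3 and 36.55 to 39.14 CPM in the others. Cyp4v3, a gene near Ctsd in profile, reached 262.4 CPM in BAPN 4, against 151.5 to 164.6 CPM in the rest of that group. Among marker genes, Csf3r of neutrophils was at 38.29 CPM in BAPN 1 (17.91 to 20.98 in the others), Kit of mast cells at 44.52 CPM in Vehicle 1 (23.27 to 26.81) and Cnn1 of smooth muscle at 115.5 CPM in BAPN 2 (36.21 to 49.72). Dsp, the 1 keratinocyte marker tested and thus the whole of that list's sum, reached 2.814 CPM in BAPN 3, against 4.231 to 4.438 CPM in the rest of that group.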

How the results depend on the processing

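Ctss was called in 19 of 20 alternatives, all but females only, and kept its direction in all 20. The members called were 1 in edgeR, 2 under DESeq2 with and without a prior on fold changes, 0 among females, and 1 to 2 with a library left out (2 without Vehicle 2). All genes called were 1957, against 3202 and 3188 under DESeq2 without and with the prior, 930 with sex as a covariate, 89 among females, 438 without both libraries numbered 4, and 397 to 2215 with 1 library left out (397 if Vehicle 1 was left out, 745 if BAPN 3, 856 if BAPN 4, 963 if Vehicle 4, 1210 if Vehicle 3 and 1224 if BAPN 2). Companion genes called were 30, against 62 and 61 under DESeq2 without and with the prior, 16 with sex, 6 among females, 14 without both libraries numbered 4, and 8 to 43 with 1 left out (8 if Vehicle 1 was left out, 9 if BAPN 3, 16 if Vehicle 3, 18 if BAPN 4 or Vehicle 4 and 19 if BAPN 1). The log2 difference of summed cathepsins, 0.45, was 0.0536 among females, 0.166 without both libraries numbered 4 and 0.304 to 0.563 with 1 left out. Their log2 ratio to the macrophage sum, −0.69, was −0.152 with equal weights, −0.187 without Lyz2 and −0.816 to −0.441 with 1 left out. Fewer samples enter the smaller fits, and beyond that the cause was not tested. With the replicate number as a block (replicate block), 556 genes and 7 companion genes were called, and Ctss had a log2 fold change of 1.05 with an edgeR FDR of 0.0478. Rats with the same number did not deviate together (correlations of 0.0944, −0.265, 0.269 and −0.14, with 1 of 4 closest to its own number). These 4 correlations show no pairing by number and are too few to exclude it.

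Signs of log2 fold changes turned among females for Ctsa (−0.0348), Ctsb (−0.067), Ctsd (−0.0745), Psap (−0.0455), Lipa (−0.224), Atp6v0c (−0.125), Mmp9 (−0.0865), Itgax (−0.338), Kit (−0.508), Fabp4 (−0.0737), Sgpl1 (−0.0519), Ipmk (−0.0528) and Puf60 (0.0516). Without both libraries numbered 4 they turned for Lipa (−0.102), Atp6v0c (−0.00975), Itgax (−0.16), Kit (−0.39) and Puf60 (0.0193), under the replicate block for Kit (−0.00628), and without a filter on low counts for Puf60 (0.0134). With 1 library left out, the range crossed 0 for Ctsc (−0.0251 to 0.317), Csf3r (−0.053 to 0.488) and Ap1b1 (−0.0541 to 0.14), each below 0 without BAPN 1, for Tnnt3 (−0.0707 to 0.272, below 0 without BAPN 2 or BAPN 3), Puf60 (−0.0553 to 0.0158, above 0 without BAPN 3 or Vehicle 4), Kit (−0.286 to 0.327, below 0 without BAPN 4 or Vehicle 4) and Cd4 (−0.183 to 0.0809, above 0 without Vehicle 2). Each member had at least 3758 counts in every library, and libraries of a group differed by far more than counting noise, so that the spread between rats set the precision. Totals that separate the groups, and a single male under BAPN, remain limits of the design.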
